A study of Mus musculus with 16 samples.

Results

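The genes described here encode channels that couple glucose metabolism to insulin release in β-cells: 9 of the 23329 genes in the deposited count table, listed by symbol. They are the subunits of the ATP-sensitive potassium (KATP) channel (Abcc8, Kcnj11), pore and β subunits of voltage-gated calcium (Cav) channels (Cacna1a, Cacna1c, Cacna1d, Cacnb2, Cacnb3) and other potassium channels (Kcnh2, Kcnk16). All 9 passed the low-count filter that left 10820 genes for testing. The cells were BetaTC6, a mouse β-cell line from an insulinoma, obtained from ATCC and labelled with a C57BL/6 background. The 16 poly(A)-selected libraries fell into 4 groups of 4: wild type with DMSO (the vehicle), wild type with ivermectin, a line labelled P2ry1 knockout with DMSO, and that line with ivermectin. All 4 groups had 3 days of culture and a spell in glucose-free buffer before 30 min in 20 mM glucose with the agent. The product of P2ry1 is a receptor for extracellular nucleotides, while ivermectin, used against parasites, acts on several ion channels. The labels give neither the ivermectin dose nor whether the knockout line is 1 clone, and nothing in them says that replicates came from separate experiments, so p-values measure only the spread between these libraries.

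In a β-cell, glucose metabolism raises ATP, which closes KATP channels and depolarizes the membrane. Cav channels then open, and the calcium that enters triggers fusion of insulin granules. Voltage-gated (Kv) potassium channels repolarize the membrane, while background potassium channels of the K2P family hold it down and limit calcium entry.

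Library totals ran from 893088 to 2013242 counts, the 4 lowest all in wild-type vehicle, so that the upper limit behind 0 counts was 1.49 to 3.36 CPM (a count divided by the depth of its library; 3 counts taken as the limit, counting error only). P2ry1 itself was read in all 16 libraries, at 94.6 ± 8.57 CPM in wild-type vehicle and 84.0 ± 8.98 CPM in the labelled knockout vehicle libraries (SD, n = 4 each; edgeR adjusted p = 0.245), so its transcript level gave no check of the label. Of the 12 β-cell markers, 11 were read in every library and Ucn3 reached at most 1.64 CPM. Wild-type ivermectin replicate 4 stood apart, with 2.99% of counts from the ribosomal RNA gene Rn45s, and the log2 differences of the 9 genes that include it are also given without it. Summed hepatocyte markers (12 genes) ranged over 640 to 1777 CPM in wild-type vehicle, 124 to 333 in wild-type ivermectin, 49.1 to 115 in knockout vehicle and 69.2 to 276 in knockout ivermectin. None of these 12 genes was at 0 in all libraries. Summed δ-cell markers (Sst, Hhex, Rbp4) ranged over 269 to 334 CPM in the wild-type and 66.3 to 90.8 CPM in the knockout libraries, and 5 α-cell markers over 281 to 344 and 215 to 260 CPM. Acinar, duct, γ-cell, fibroblast, endothelial and leukocyte markers summed to at most 8.96 CPM in any library, with 3 of 7 acinar and 1 of 3 duct markers at 0 throughout.

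The largest differences among the 9 genes lay between the lines. Kcnk16 and Cacnb2 were lower, and Abcc8 higher, in the labelled knockout line under both treatments, and Cacna1d was lower under ivermectin. Promoter windows of the 3 lower genes follow, while Abcc8 had no promoter entry. Of these 3, Cacna1d passed under ivermectin alone, and that call rested on single libraries, as given below. Each window runs 250 bases up to the annotated start, 5′ to 3′ on the gene's strand, from RefSeq on GRCm38.p6, the assembly behind mm10. Capitals mark the motif matches that were found. Cacnb2 and Cacna1d have 2 annotated starts each, of which 1 is shown, picked with the motif matches in view, and the gene-level counts do not tell which start was used.
Kcnk16 (chr14:20269270-20269519, minus strand): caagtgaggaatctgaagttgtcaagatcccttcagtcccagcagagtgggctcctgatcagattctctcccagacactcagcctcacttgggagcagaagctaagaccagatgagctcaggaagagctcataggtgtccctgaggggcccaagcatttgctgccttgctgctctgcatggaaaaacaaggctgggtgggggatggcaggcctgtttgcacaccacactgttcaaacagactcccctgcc
Cacnb2, start 2 (chr2:14823842-14824091, plus strand): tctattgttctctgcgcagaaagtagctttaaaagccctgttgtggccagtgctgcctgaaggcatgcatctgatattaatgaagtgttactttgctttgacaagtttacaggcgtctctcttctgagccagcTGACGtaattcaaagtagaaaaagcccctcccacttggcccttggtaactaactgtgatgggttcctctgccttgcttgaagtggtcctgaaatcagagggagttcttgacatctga
Cacna1d, start 1 (chr14:30491157-30491406, minus strand): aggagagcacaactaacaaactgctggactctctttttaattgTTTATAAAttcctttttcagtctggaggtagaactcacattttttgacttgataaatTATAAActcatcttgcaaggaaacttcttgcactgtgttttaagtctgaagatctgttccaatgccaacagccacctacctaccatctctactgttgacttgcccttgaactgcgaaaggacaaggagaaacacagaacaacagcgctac

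The Kcnk16 window held 54.8% GC and 0 CpG dinucleotides, that of Cacnb2 46.0% and 3, and that of Cacna1d 39.6% and 2, against a median of 52.4% and 6 CpG over 32841 promoters. The windows of the starts not shown lay on the other side of that median, with 73.2% GC and 30 CpG for Cacnb2 and 86.4% GC and 50 CpG for Cacna1d, and held none of the motifs searched. Both strands were searched for 7 motifs. The E-box CACGTG occurred in 6.02% of all promoter windows of the same length. The cyclic AMP response element TGACGTCA occurred in 1.55% of windows. Its half-site, the letters TGACG that also lie inside the full element, occurred in 17.8% of windows. The AP-1 site occurred in 6.75% and the EGR site GCGNGGGCG in 4.70% of windows. The MAF half-site, searched as the letters TGCTGAC, was found in 3.81% of windows, and the TATA box, searched as TATAAA, in 12.4%. None was in the Kcnk16 window. The Cacnb2 window held TGACG at -117, and the Cacna1d window held TATAAA at -207, -205 and -150, the first 2 overlapping on opposite strands. A match is only a match of letters. Among the 9 genes, 6 had promoter entries; Abcc8, Kcnj11 and Cacna1a had none.

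In vehicle, 3 of the 9 genes passed the threshold between the lines (edgeR adjusted p under 0.05 over all genes tested), 1 higher and 2 lower in the knockout line. The background was 20.7% of the 10820 genes tested, 9.86% higher and 10.8% lower, so the share of 33.3% among 9 genes is no result about them as a group. Under ivermectin, 4 of 9 passed, 1 higher and 3 lower, against a background of 27.8% (13.9% in each direction). The 3 genes that passed in vehicle were also past the threshold under ivermectin, in the same direction. The same 3 genes had no overlap between the 4 libraries of each line in either treatment, a pattern that 22.1% of tested genes showed in vehicle and 25.3% under ivermectin. In bulk RNA, fewer cells with a transcript and less of it per cell cannot be told apart.

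**Figure D1:**
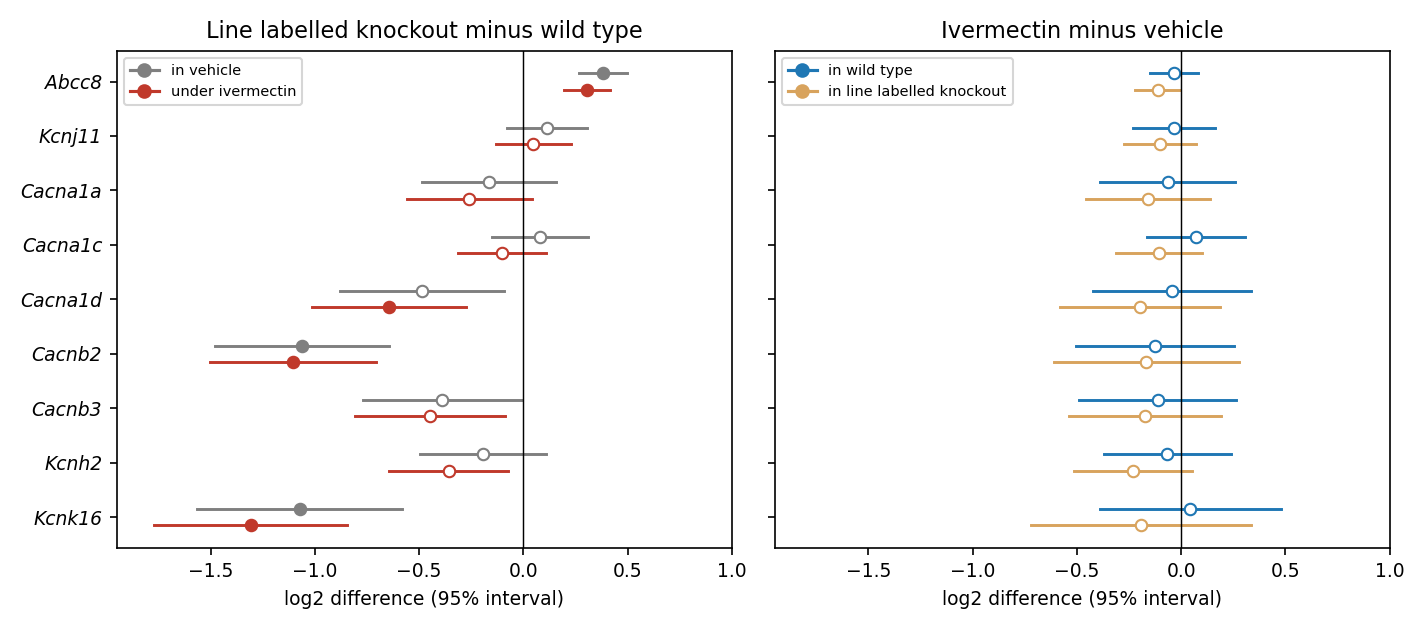
Log2 differences of the 9 genes (x axis) with 95% intervals from edgeR; left, labelled knockout minus wild type in vehicle (grey) and under ivermectin (red); right, ivermectin minus vehicle in wild type (blue) and in the labelled knockout line (ochre). Filled points passed an adjusted p of 0.05, open points did not; the filled points are Abcc8, Cacnb2 and Kcnk16 in both line comparisons and Cacna1d under ivermectin, and the right panel has none.

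Of the KATP subunits, Abcc8 passed the test between the lines. It encodes SUR1, the sulfonylurea-binding regulatory subunit, and lies on chromosome 7 from 46104523 to 46180039 on the minus strand, overlapping 1 annotated long non-coding RNA. Abcc8 was read at 583, 646, 649 and 647 CPM in wild-type vehicle replicates 1 to 4 and at 825, 890, 790 and 786 CPM in the knockout vehicle libraries. Under ivermectin it was at 629, 626, 645 and 564 CPM in wild type and at 784, 768, 724 and 768 CPM in the knockout line. Every knockout library thus lay above every wild-type library. The line difference for Abcc8 was 0.38 on the log2 scale in vehicle (SE 0.0556, edgeR adjusted p = 2.68e-06), a 1.3-fold higher level. Under ivermectin it was 0.30 (SE 0.0543, edgeR adjusted p = 5.72e-05), 1.23-fold, and without wild-type ivermectin replicate 4 it was 0.27.

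Kcnj11 encodes Kir6.2, the pore of the same channel, and is the neighbour of Abcc8, with 3570 bases between them (chromosome 7, 46097123 to 46100952, minus strand, no overlapping gene). It averaged 130 ± 9.68 CPM in the wild-type and 140 ± 4.51 CPM in the knockout vehicle libraries, 127 ± 19.5 CPM in wild-type ivermectin and 131 ± 11.3 CPM in knockout ivermectin (SD, n = 4 each). The groups overlapped in both treatments. For Kcnj11 the line difference was 0.11 in vehicle (95% interval -0.08 to 0.30, edgeR adjusted p = 0.432) and 0.05 under ivermectin (-0.13 to 0.23, adjusted p = 0.737; 0.015 without wild-type ivermectin replicate 4). The difference in response between Abcc8 and Kcnj11 was not tested.

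Cacna1d was the 1 pore-forming Cav subunit among the 9 genes that passed a test. It encodes Cav1.3, an L-type channel that opens at comparatively negative voltages, and spans chromosome 14 from 30039941 to 30491156 (minus strand), overlapping 9 annotated genes, among them the coding genes Chdh and Dcp1a. Without a statement that counting used strand, reads from overlapping genes cannot be told apart. Cacna1d was read at 50.6, 36.2, 31.0 and 25.1 CPM in wild-type vehicle and at 24.4, 27.1, 21.5 and 27.5 CPM in knockout vehicle. In ivermectin libraries it was at 40.5, 35.6, 27.2 and 31.4 CPM in wild type and at 13.9, 27.4, 24.2 and 22.6 CPM in the knockout line. In both treatments 1 wild-type library lay within the knockout range, so the groups overlapped. The fall under ivermectin was -0.64 (SE 0.183, edgeR adjusted p = 0.0075), and in vehicle the difference was -0.49 (SE 0.194, edgeR adjusted p = 0.0697). The ivermectin call rested on single libraries: without wild-type ivermectin replicate 1 it was -0.53 (adjusted p = 0.0506), and without knockout ivermectin replicate 1 it was -0.46 (adjusted p = 0.0584). The vehicle value passed without wild-type vehicle replicate 4 (-0.63, adjusted p = 0.0268) and in the fit without knockout ivermectin replicate 1 (-0.49, adjusted p = 0.0495). It also passed in the fit on the 8 libraries compared (-0.49, adjusted p = 0.0453). Thinning to the smallest total ended the ivermectin call of Cacna1d (-0.54, adjusted p = 0.127) and took the vehicle value past the threshold (-0.84, adjusted p = 0.0178). Without wild-type ivermectin replicate 4 the ivermectin value was -0.67.

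Cacna1c, which encodes Cav1.2, the other L-type pore among the 9, spans chromosome 6 from 118587240 to 119197384 (minus strand) and overlaps 7 annotated genes. Its group means were 79.1 ± 9.14 CPM (wild-type vehicle), 82.6 ± 12 CPM (wild-type ivermectin), 83.8 ± 9.81 CPM (knockout vehicle) and 77.8 ± 3.78 CPM (knockout ivermectin; SD, n = 4 each). The 4 groups overlapped. The line difference was 0.08 in vehicle (95% interval -0.15 to 0.31) and -0.10 under ivermectin (-0.31 to 0.11; -0.16 without wild-type ivermectin replicate 4).

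Cacna1a, which encodes Cav2.1, the P/Q-type pore, spans chromosome 8 from 84338631 to 84640251 (plus strand) and overlaps 4 annotated non-coding genes. It was at 36.8 ± 3.71 and 35.1 ± 5.77 CPM in wild-type vehicle and ivermectin libraries and at 32.8 ± 5.06 and 29.8 ± 4.46 CPM in the knockout libraries (SD, n = 4 each). Its line differences of -0.16 (95% interval -0.49 to 0.16) and -0.26 (-0.56 to 0.04) did not pass the test, and the latter was -0.24 without wild-type ivermectin replicate 4.

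Both β subunits were lower in the knockout line on average, and Cacnb2 passed the test. Cav β subunits bind the pore inside the cell, bring it to the membrane and set how it gates. Cacnb2 spans chromosome 2 from 14603861 to 14988811 (plus strand) and overlaps 6 annotated non-coding genes or pseudogenes. It was read at 28.1, 27.4, 28.9 and 24.2 CPM in wild-type vehicle and at 17.4, 12.5, 12 and 10.1 CPM in knockout vehicle. Under ivermectin it was at 27.5, 24.1, 24.5 and 22.2 CPM in wild type and at 16.1, 11.4, 9.80 and 7.76 CPM in the knockout line. The lowest wild-type library lay above the highest knockout library in each treatment. For Cacnb2 the fall was -1.06 in vehicle (SE 0.205, edgeR adjusted p = 0.000181), 2.09-fold lower, and -1.11 under ivermectin (SE 0.197, edgeR adjusted p = 5.33e-05), 2.15-fold lower. Without wild-type ivermectin replicate 4 the latter was -1.14. These levels rest on 12 to 55 counts per library, and with every library thinned to the smallest total the vehicle value was -0.81 (adjusted p = 0.0544).

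Cacnb3 (chromosome 15, 98628436 to 98644536, plus strand, no overlapping gene) was read at 32.6, 17.6, 36.3 and 25.1 CPM in wild-type vehicle and at 22.1, 19.1, 22.9 and 20.1 CPM in knockout vehicle. Its wild-type vehicle libraries spread over both sides of the knockout range. Under ivermectin the means were 25.6 ± 3.49 CPM in wild type and 18.5 ± 2.58 CPM in the knockout line (SD, n = 4 each), and the groups again overlapped. The line difference of Cacnb3 was -0.39 in vehicle (SE 0.187, edgeR adjusted p = 0.141) and -0.45 under ivermectin (SE 0.177, edgeR adjusted p = 0.0557). Without wild-type vehicle replicate 2 it passed in both treatments, at -0.56 (adjusted p = 0.0357) and -0.45 (adjusted p = 0.0421). Under ivermectin it also passed without wild-type ivermectin replicate 2 (-0.54, adjusted p = 0.0327) or knockout ivermectin replicate 2 (-0.53, adjusted p = 0.0394). The value of Cacnb3 without wild-type ivermectin replicate 4 was -0.44 (adjusted p = 0.0848).

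Of the potassium channels outside KATP, Kcnk16 fell. It encodes TALK1, a K2P background channel known from pancreatic islets, and lies on chromosome 14 from 20261375 to 20269269 (minus strand) with no overlapping gene. Kcnk16 was read at 25.9, 17.6, 18.2 and 15.8 CPM in wild-type vehicle and at 7.55, 7.52, 9.98 and 11.1 CPM in knockout vehicle. With ivermectin Kcnk16 was at 21.5, 17.5, 15.9 and 24.5 CPM in wild type and at 5.90, 9.71, 9.15 and 7.12 CPM in the knockout line. The lines did not overlap in either treatment. The fall was -1.07 in vehicle (SE 0.242, edgeR adjusted p = 0.00116), 2.10-fold lower, and -1.31 under ivermectin (SE 0.228, edgeR adjusted p = 3.86e-05), 2.48-fold lower. Without wild-type ivermectin replicate 4 the latter was -1.21. The counts behind Kcnk16 were low, 11 to 43 per library, and after thinning to the smallest total the vehicle value was -0.998 (adjusted p = 0.0554).

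Kcnh2 encodes the Kv channel ERG1 (chromosome 5, 24319589 to 24351684, minus strand, overlapping 1 long non-coding RNA). It was read at 43.8, 46.9, 42.8 and 65.0 CPM in wild-type vehicle and at 49.9, 45.6, 42.9 and 37.1 CPM in knockout vehicle. In ivermectin libraries Kcnh2 was at 49.0, 48.8, 48.4 and 44.4 CPM in wild type and at 46.6, 34.8, 39.9 and 26.5 CPM in the knockout line. In each treatment at least 1 knockout library lay within the wild-type range. The difference was -0.19 in vehicle (95% interval -0.50 to 0.11) and -0.36 under ivermectin (95% interval -0.65 to -0.07, edgeR adjusted p = 0.0546). The ivermectin value of Kcnh2 passed without knockout ivermectin replicate 1 (-0.50, adjusted p = 0.013), without wild-type vehicle replicate 4 (-0.36, adjusted p = 0.044), after thinning to the smallest total (-0.64, adjusted p = 0.0203) and among genes with a mean of at least 50 counts (-0.37, adjusted p = 0.0428). Without wild-type ivermectin replicate 4 it was -0.39 (adjusted p = 0.0524).

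**Figure D2:**
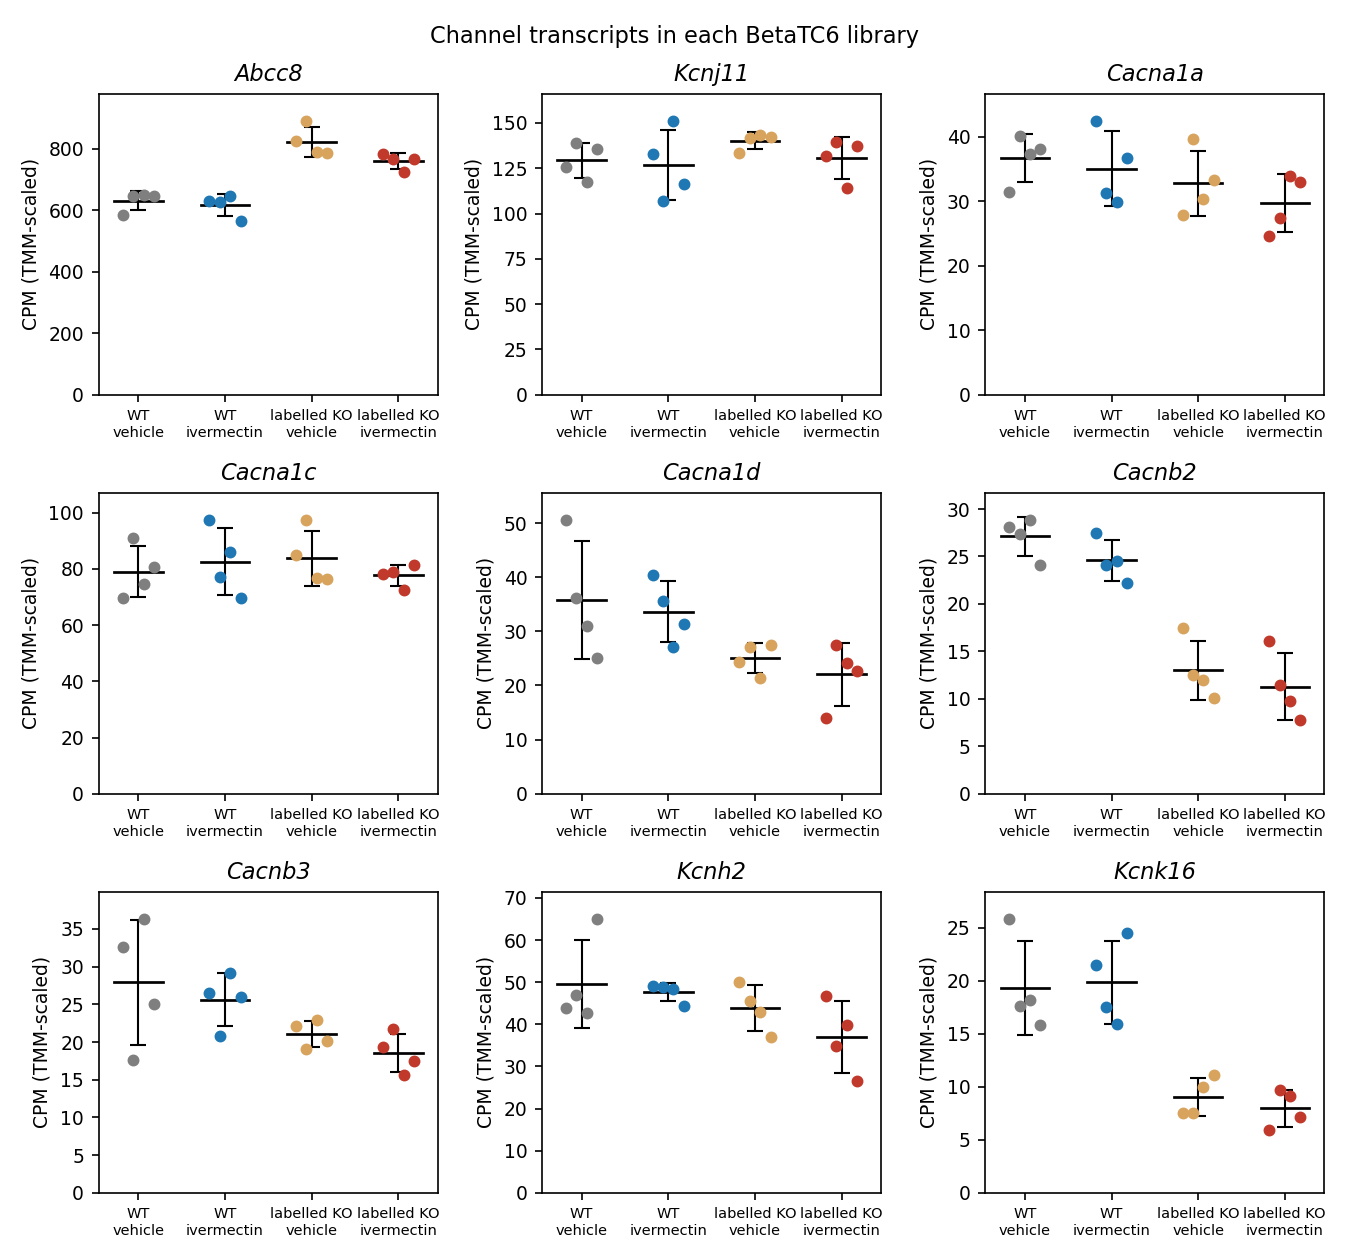
Level of each of the 9 genes (y axis, CPM scaled with TMM factors, from 0) in the 4 groups (x axis); each point is 1 library, the bar the group mean and the whiskers 1 SD (n = 4). All knockout points lie above the wild-type points for Abcc8 and below them for Cacnb2 and Kcnk16, while the groups overlap for the other 6 genes.

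Marker sums of other cell types differed between groups, and not only by line. In vehicle the hepatocyte, δ-cell and α-cell sums of the lines did not overlap. Nor did the small fibroblast, endothelial and leukocyte sums (at most 8.96 CPM), which overlapped under ivermectin. Within wild type, the hepatocyte sums of vehicle (640 to 1777 CPM) and ivermectin (124 to 333 CPM) did not overlap, and nor did the fibroblast and endothelial sums. Under ivermectin the hepatocyte sums overlapped (124 to 333 CPM in wild type, 69.2 to 276 CPM in the knockout line), while the δ-cell sums (269 to 311 and 68.6 to 90.8 CPM) and the α-cell sums (292 to 326 and 215 to 260 CPM) did not. Depth also differed in vehicle, where wild type held the 4 lowest totals. After thinning to the smallest total, the vehicle differences of Cacnb2 (-0.81) and Kcnk16 (-0.998) and the ivermectin difference of Cacna1d (-0.54) no longer passed, while the vehicle difference of Cacna1d (-0.84) did. The ivermectin calls of Cacnb2 and Kcnk16 and both calls of Abcc8 were kept. The part of other cell types in these differences was not tested.

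The wider list held 126 genes of KATP, Cav and potassium channels, their auxiliary subunits and the RGK proteins that inhibit Cav channels, and 39 of them, the 9 included, passed the low-count filter; 16 were at 0 in all libraries. In vehicle, 12 of the 39 (30.8%) passed between the lines, 2 higher and 10 lower, against 20.7% of all genes tested (9.86% higher, 10.8% lower), with a median log2 difference of -0.26 against -0.00 over all genes tested. Under ivermectin, 19 of the 39 (48.7%) passed, 2 higher and 17 lower, against 27.8% of all genes tested (13.9% in each direction), with a median of -0.34; without wild-type ivermectin replicate 4, 16 passed (1 higher), and after thinning to the smallest total 11 passed. All 12 of the vehicle calls were also called under ivermectin, in the same direction. The filter asked for at least 6.01 CPM in 4 libraries. Of the 39 genes, 33 met it within each line, the 9 included, while 4 met it through wild type alone and could hardly have been called higher in the knockout line. Another 1 met it through the knockout line alone and could hardly have been called lower, and 1 met it only with libraries of both lines together. Of those 33, 10 passed in vehicle (2 higher, 8 lower) and 16 under ivermectin (2 higher, 14 lower). Without the 9 genes, 9 of 30 passed in vehicle (1 higher, 8 lower) and 15 of 30 under ivermectin (1 higher, 14 lower). The remaining genes are given for context only, since the list was drawn up with earlier results of these data known.

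The Kv pore genes were the largest class, with 12 of 40 tested. In vehicle all 12, Kcnh2 included, had negative differences and 6 passed (median -0.66), and under ivermectin 10 of 12 were negative and again 6 passed (median -0.77). All 6 calls in each treatment were lower, against 10.8% of all genes tested called lower in vehicle and 13.9% under ivermectin. Kcnh5 and Kcna2 entered the test through wild type alone, with 0 of 8 knockout libraries at the filter's level, so their direction was largely fixed by the filter. Of the other 10 Kv genes, 5 were called in each treatment, all lower. Kcnh1, which encodes an EAG channel, was at 50.1 ± 3.67 CPM in wild-type vehicle and 15.8 ± 3.84 CPM in knockout vehicle (SD, n = 4 each; -1.67, edgeR adjusted p = 3.0e-09). Its relative Kcnh5 was at 10.1 ± 2.50 and 3.26 ± 0.918 CPM, on 4 to 14 counts per vehicle library (-1.61, edgeR adjusted p = 0.000625). Kcnf1, a silent subunit that modifies other Kv channels, was at 50.7 ± 5.45 and 26.3 ± 5.47 CPM (-0.94, edgeR adjusted p = 7.8e-06). Kcnc2, a fast Kv3 channel, was at 17.8 ± 1.27 and 9.45 ± 0.846 CPM (-0.91, edgeR adjusted p = 0.00686), and after thinning to the smallest total it was -0.80 and did not pass (adjusted p = 0.148). These 4 genes were also past the threshold under ivermectin, by -1.78, -1.55, -0.84 and -0.83.

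Kcnab2, which encodes a cytoplasmic Kv β subunit, was at 52.3 ± 6.75 CPM in wild-type and 28.6 ± 3.87 CPM in knockout vehicle libraries (SD, n = 4 each; -0.87, edgeR adjusted p = 4.62e-05). Under ivermectin its difference was -0.42 (edgeR adjusted p = 0.0226), a call that DESeq2 did not make (adjusted p = 0.105), that did not pass after thinning (-0.57, adjusted p = 0.0773) and that was lost without wild-type ivermectin replicate 2 or 3 or knockout ivermectin replicate 1, 2 or 3 (adjusted p = 0.0551 to 0.121). The 2 K2P genes tested were Kcnk16 and Kcnk1. Kcnk1, which encodes TWIK1 and also entered the test through wild type alone, had 29 counts over the wild-type vehicle libraries and 2 over the knockout vehicle libraries, a depth-scaled ratio of 28.4 (95% exact interval 7.19 to 246, counting error only). Under ivermectin it had 49 and 1 counts, a ratio of 50.1 (8.59 to 2020). With so few counts the knockout level of Kcnk1 is at the limit of these libraries.

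Cacna1h, which encodes the T-type pore Cav3.2, was the other higher channel gene. It was at 56.9 ± 7.12 CPM in wild-type and 80.3 ± 7.19 CPM in knockout vehicle libraries (SD, n = 4 each), without overlap, a difference of 0.50 (SE 0.119, edgeR adjusted p = 0.00203). Under ivermectin it was 0.29 (edgeR adjusted p = 0.0411), which DESeq2 did not call (adjusted p = 0.136), which did not pass after thinning (0.45, adjusted p = 0.054) and which was lost when any of 6 libraries was left out: wild-type ivermectin replicate 1, 3 or 4 or knockout ivermectin replicate 1, 2 or 3 (adjusted p = 0.0714 to 0.13). Of the RGK genes, Gem and Rem2 were tested, while Rem1 and Rrad did not pass the low-count filter. Gem differed by -0.07 in vehicle and by -0.34 under ivermectin (edgeR adjusted p = 0.0394), the latter not called by DESeq2 (adjusted p = 0.113), not passing after thinning (-0.31, adjusted p = 0.24) and lost without wild-type ivermectin replicate 2, 3 or 4 or knockout ivermectin replicate 1, 2 or 3 (adjusted p = 0.0594 to 0.231). Rem2 differed by -0.01 in vehicle, a value whose sign changed with the processing, and by 0.22 under ivermectin (adjusted p = 0.619).

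**Figure D3:**
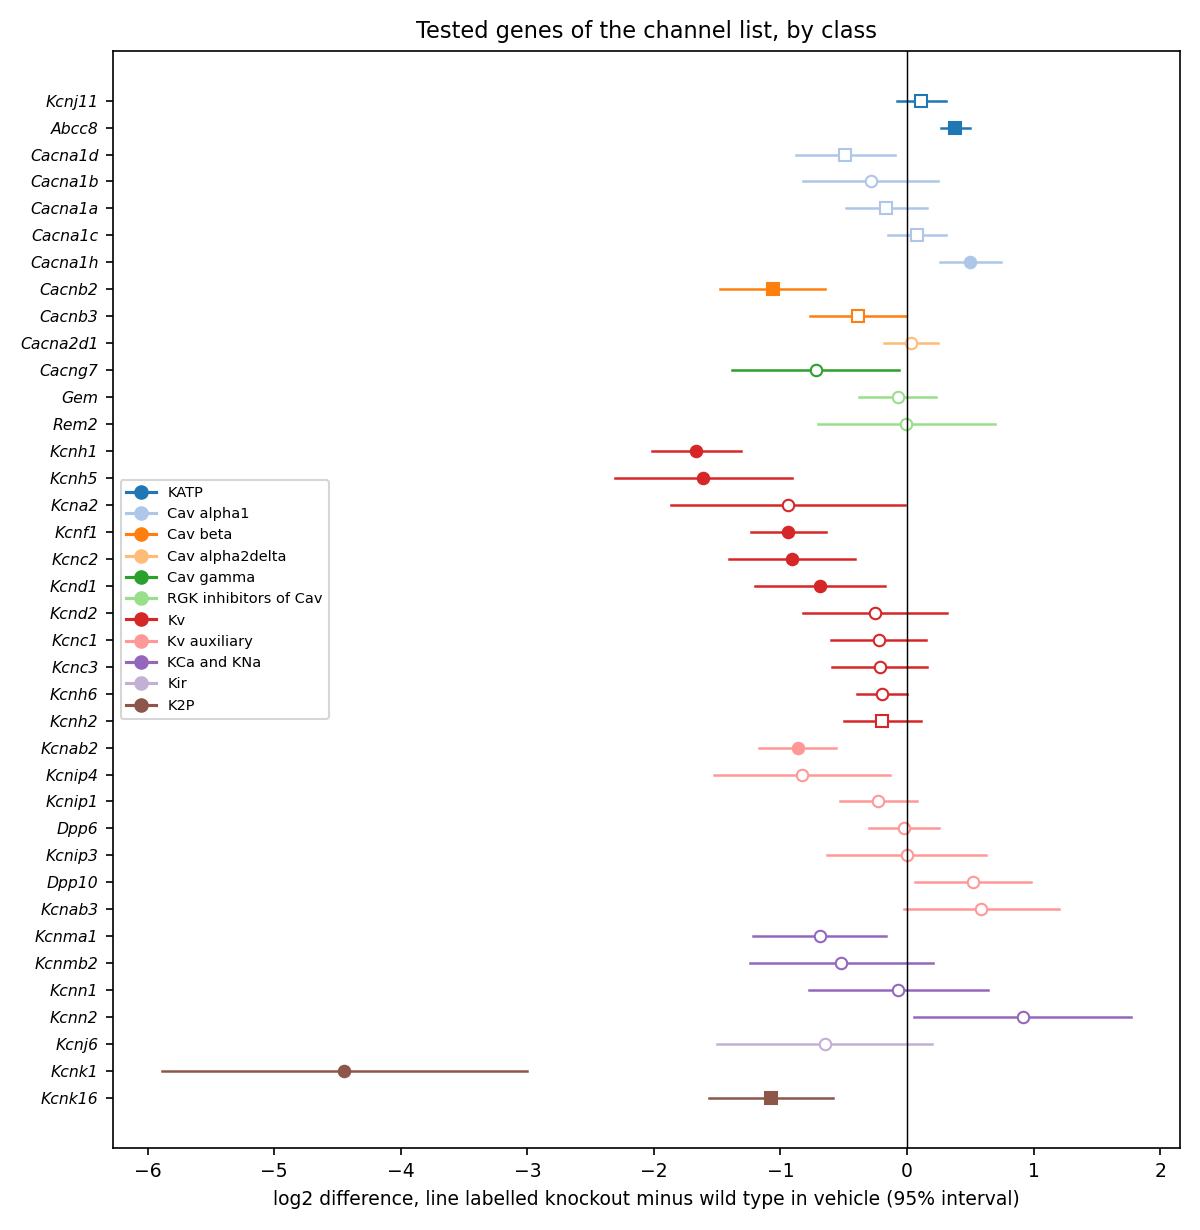
Log2 difference, labelled knockout minus wild type in vehicle (x axis, with 95% intervals from edgeR), of the tested genes of the channel list (y axis), coloured by class; 1 Kv gene is not shown. Squares are the 9 genes described here, filled symbols passed an adjusted p of 0.05; the Kv genes shown all lie left of 0, and the filled symbols right of 0 are Abcc8 and Cacna1h.

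Per unit of transcript length (TPM), Abcc8 was the most abundant of the 9 in every group, at 198 ± 14.4 TPM in wild-type vehicle (SD, n = 4), rank 764 of the 23329 genes listed. Kcnj11 followed at 67.4 ± 6.12 TPM and Kcnk16 at 42.8 ± 8.30 TPM, and the ranges of these 3 did not overlap. Kcnh2 (18.5 ± 4.28 TPM), Cacnb3 (16.4 ± 4.40 TPM) and Cacna1c (14.6 ± 2.08 TPM) were next, each overlapping its neighbour. Cacnb2 (10.8 ± 0.655 TPM) stood between Cacna1c and Cacna1a without overlap, and Cacna1a (7.19 ± 0.864 TPM) and Cacna1d (5.98 ± 1.69 TPM) overlapped. In wild-type ivermectin libraries the order was the same except that Cacna1c (15.1 TPM) stood above Cacnb3 (14.4 TPM), 2 genes that overlapped, and Cacnb2 (9.64 TPM) overlapped Cacna1a.

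In the knockout line Kcnk16 no longer stood apart from the genes after it. It was at 19.0 ± 3.40 TPM in vehicle, overlapping Kcnh2 (15.4 ± 2.17 TPM), and at 16 ± 3.72 TPM under ivermectin, overlapping Cacna1c (12.9 ± 0.956 TPM). Cacnb2, at 4.90 ± 1.14 and 4.06 ± 1.4 TPM, lay below Cacna1a, at 6.08 ± 1.23 and 5.20 ± 0.559 TPM, with overlapping ranges (SD, n = 4 each).

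**Figure D4:**
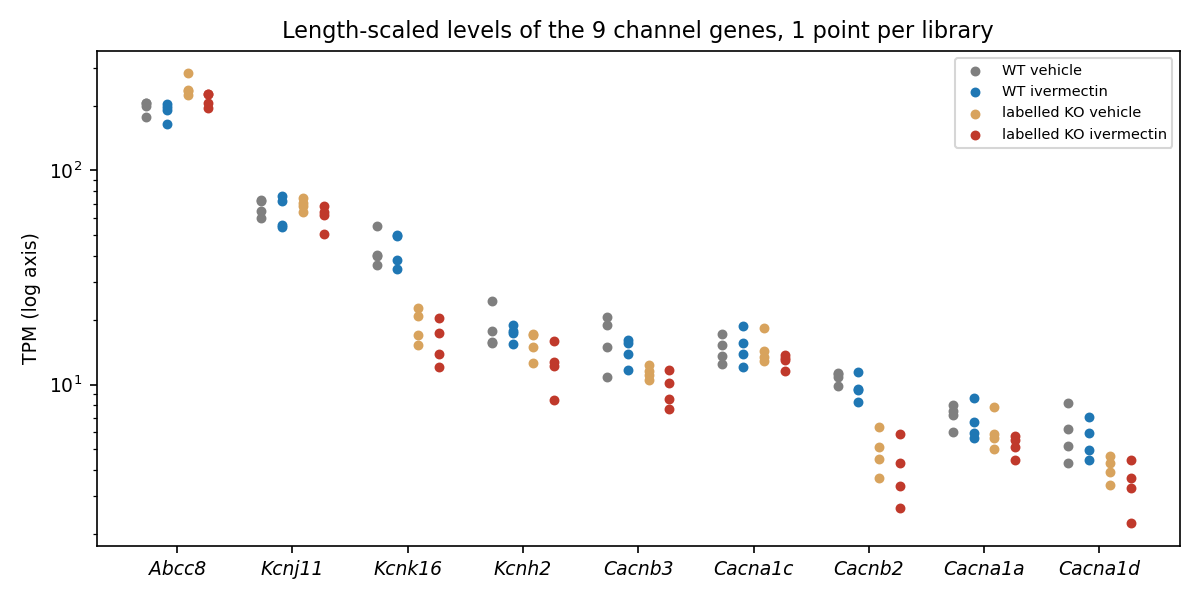
TPM (y axis, log scale) of the 9 genes (x axis, ordered by mean TPM in wild-type vehicle); each point is 1 library, coloured by group. Abcc8 is the highest in every group, and Kcnk16 moves from 42.8 TPM in wild-type vehicle to 19.0 TPM in knockout vehicle, into the range of Kcnh2.

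Ratios between related subunits were chosen after the values were seen and are given without a test. The TPM ratio of Abcc8 to Kcnj11 was 2.95 ± 0.262 and 2.99 ± 0.398 in wild-type vehicle and ivermectin and 3.54 ± 0.277 and 3.52 ± 0.298 in the knockout line (SD, n = 4 each). The ratio of Cacnb3 to Cacnb2 was 1.52 ± 0.388 and 1.5 ± 0.225 in wild type and 2.40 ± 0.492 and 2.49 ± 0.641 in the knockout line. The ratio of Cacna1c to Cacna1d was 2.62 ± 0.842 and 2.73 ± 0.527 in wild type and 3.64 ± 0.463 and 4.03 ± 1.31 in the knockout line. Of the summed TPM of the 5 Cav pore genes tested, Cacna1c made up 35.4%, 35.6%, 35.7% and 35.9% in the 4 groups. Cacna1h made up 25.7% and 26.0% in wild type and 34.4% and 33.8% in the knockout line, and Cacna1d 14.6% and 13.2% against 9.88% and 9.44%.

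None of the 9 genes passed the test for ivermectin in either line. In wild type 0 of 9 passed by edgeR, 0 had an unadjusted p under 0.05 and DESeq2 called 0, against a background of 0.601% of genes (0.0555% higher, 0.545% lower). Groups without overlap, found in 3.35% of all genes tested, occurred in 0 of the 9. The differences ran from -0.12 for Cacnb2 (95% interval -0.50 to 0.25) to 0.07 for Cacna1c (-0.16 to 0.31), 2 positive and 7 negative. Abcc8 had the narrowest interval, -0.15 to 0.08 around -0.03, and Kcnk16 the widest, -0.39 to 0.48 around 0.04. Leaving out wild-type ivermectin replicate 4 gave 0.0056 for Abcc8 and -0.048 for Kcnk16, both of the opposite sign, -0.084 for Cacnb2 and 0.14 for Cacna1c. For the other 5 genes it was -0.00096 (Kcnj11), -0.077 (Cacna1a), -0.011 (Cacna1d), -0.12 (Cacnb3) and -0.038 (Kcnh2), and 0 of 9 passed. Changes within these intervals were not excluded. The intervals are not limits of detection, since a larger difference can also miss the threshold at this depth.

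In the labelled knockout line 0 of 9 passed by edgeR and 0 by DESeq2, against a background of 0% (0 of 10820 genes, with 820 at an unadjusted p under 0.05). All 9 differences were negative, from -0.10 for Kcnj11 to -0.23 for Kcnh2, with a median of -0.17 against 0.00 over all genes tested. Abcc8 was the only 1 of the 9 with an unadjusted p under 0.05 and with groups that did not overlap: 786 to 890 CPM in vehicle and 724 to 784 CPM under ivermectin (-0.11, SE 0.0532, edgeR adjusted p = 0.648). Groups without overlap occurred in 3.69% of all genes tested. In the wider list 0 of 39 genes passed in either line by edgeR, with 2 at an unadjusted p under 0.05 in wild type and 3 in the knockout line. Gem had the smallest p in wild type (61.4 ± 13.2 CPM in vehicle and 84.6 ± 16.9 CPM under ivermectin, 0.46, edgeR adjusted p = 0.324), and passed without wild-type ivermectin replicate 1 (0.59, adjusted p = 0.0158).

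Whether ivermectin acted differently in the lines was tested as the interaction, which shares its libraries with all the comparisons above. It passed for 0 of the 9 genes by edgeR, with 0 at an unadjusted p under 0.05, against a background of 0.222% of genes (0.213% higher, 0.00924% lower). The values ran from -0.24 for Kcnk16 (95% interval -0.92 to 0.45) to -0.04 for Cacnb2 (-0.62 to 0.53). For Abcc8, the most precisely measured, the interaction was -0.08 (-0.24 to 0.08). With wild-type ivermectin replicate 4 left out, the 9 values ran from -0.25 (Cacna1c) to -0.054 (Cacnb3), and 0 of 9 passed. So the falls of Kcnk16 and Cacnb2 and the rise of Abcc8 in the knockout line were not shown to differ between vehicle and ivermectin.

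The genes whose levels most resembled those of Abcc8 and Cacnb2, the 2 with the smallest adjusted p between the lines in vehicle, were taken by the Pearson correlation of log2 CPM over the 16 libraries. For Abcc8 they were Cpd (r = 0.964), Igf2as (0.962; an antisense gene whose reads may be shared with its partner) and Ubqln2 (0.958). For Cacnb2 they were Plekha2 (r = 0.943), Sec23a (0.940) and Smad1 (0.936). The 16 libraries form 4 groups and share the line difference that these genes were matched on, so the correlations are descriptions.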

How the data were processed

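RNA was measured in 16 BetaTC6 libraries, per the labels' protocols from 125 ng of poly(A)-selected RNA each, with a directional kit, 11 PCR cycles and paired reads of 42 nucleotides. Per the submitters' processing notes, bcl2fastq, STAR 2.7.2b, RSEM 1.3.3, DESeq2 1.32.0 and mm10 were used; whether counting used strand is not given in the sources used here. The count table that the authors deposited holds whole numbers, in 100% of cells the RSEM expected count, per the file headers, rounded down. TPM, FPKM and effective lengths are the authors' RSEM values, per the file headers; FPKM served only to check the order of levels, and the deposited normalized table and human single-cell tables were not used.

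The counts went into edgeR 4.0.16 (R 4.3.3), with filterByExpr at its defaults (minimum count 10, minimum total 15), TMM factors, the quasi-likelihood F test, a mean for each group fitted on the 16 libraries together, and p-values adjusted by Benjamini-Hochberg over 10820 genes at 0.05. There were 5 comparisons: the drug effect in each line, the line difference with each agent, and their interaction. CPM are TMM-scaled, except marker sums and limits for a count of 0, which are scaled by library totals. A fold change of a gene at or near 0 counts is given as a ratio with an exact counting interval. The script was tested on simulated data. Every replicate pair differed by more than counting noise (chi-squared per degree of freedom 1.16 to 7.36).

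The genes, the channel list, the marker lists and the tests were chosen with earlier results of these data known. The text names the 9 genes, P2ry1, Gem and Rem2, per direction up to 6 listed channel genes with the largest vehicle line difference past the threshold, no overlap and a mean log2 CPM of 1 or more, listed genes called in an ivermectin comparison, and the 3 most similar genes of 2 members; 1 channel gene is counted but not reported here by name. Alternatives were DESeq2 1.42.0, relative log expression factors, every gene with a count kept, a stricter filter (mean of at least 50 counts), rounded expected counts, fits on just the 8 libraries of a comparison, a replicate block, 1 draw of thinning to the smallest total, and leaving out each library. Coordinates and promoters are RefSeq's on GRCm38.p6.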

Additional observations from a re-analysis of the deposited data

Results flagged for a closer look

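In 6 of 76 groups of 4 libraries, the gap of 1 library to its nearest was most of the group's range. Chance gives about 3.8 for normally spread values. That figure does not apply to Kcnk1, whose other knockout libraries were at 0. The gaps were not compared with counting error, and some are small. In the labelled knockout vehicle libraries, Kcnj11 was at 133.6 CPM in replicate 1 and 142 to 143 CPM in the others. Abcc8 was at 583.5 CPM in wild-type vehicle replicate 1 and 646 to 649 CPM in the others. Kcnh2 was at 44.4 CPM in wild-type ivermectin replicate 4, the library with the high Rn45s share, and 48.4 to 49.0 CPM in the others. Kcnab2 was at 38.8 CPM in knockout ivermectin replicate 4 and 30.7 to 31.6 CPM in the others. Kcnk1 had 2 counts (1.06 CPM) in knockout vehicle replicate 4 and 1 count (0.536 CPM) in knockout ivermectin replicate 1, and 0 in the other knockout libraries. No explanation for these libraries was tested.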

How the results depend on the processing

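The calls for Abcc8, Cacnb2 and Kcnk16 between the lines held in both treatments in all 16 fits that left out 1 library. They held under the other alternatives too, except that a mean of at least 50 counts removed Cacnb2 and Kcnk16 (and Cacna1d, called under ivermectin) and thinning ended their vehicle calls. Ivermectin called 0 of the 9 genes under every alternative run. The genes called moved by over 1.5 times in these fits. Without a low-count filter they were 140 for ivermectin in wild type, 23 for ivermectin in the knockout line and 82 for the interaction, and 1 channel gene (Gem) was called for ivermectin in wild type. With a mean of at least 50 counts they were 7 for ivermectin in wild type and 4 for the interaction; between the lines 1 of the 9 (Abcc8) and 5 channel genes passed in vehicle, and 2 of the 9 (Abcc8 and, newly, Kcnh2) and 7 channel genes under ivermectin, with fewer genes tested. Thinning to the smallest total gave 39 genes for ivermectin in wild type, 1222 and 1492 between the lines, 11 channel genes between the lines under ivermectin, and 11 genes for the interaction. The cause was not tested for the other settings.

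Replicate numbers are shared between groups. Of 24 same-numbered pairs 2 correlated over 0.1 (-0.0566 to 0.145) and 9 were best with their own number. These values cannot decide whether same-numbered libraries were paired, because a best match among 4 libraries also arises by chance. The main fits did not use the numbers. With the replicate block the interaction called 47 genes in place of 24; the block changed no other count by over 1.5 times.

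Signs turned only for values that passed no test. After thinning, Cacna1d was 0.047 and Kcnh2 0.15 for ivermectin in wild type, Cacna1d 0.35 for ivermectin in the knockout line and 0.30 for the interaction, and Rem2 -0.41 between the lines under ivermectin. Rem2 between the lines in vehicle was 0.0071 with DESeq2, 0.025 with no filter, 0.013 with the replicate block and 0.070 after thinning.

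Leaving out 1 library gave 55 to 100 genes called for ivermectin in wild type (100 without wild-type ivermectin replicate 1), with 0 to 1 channel genes, and 8 to 48 for the interaction (14 and 48 when wild-type ivermectin replicate 3 or 1 was left out, 8 for knockout ivermectin replicate 1). For ivermectin in wild type the ranges were -0.066 to 0.0056 for Abcc8, -0.12 to 0.044 for Kcnj11, -0.19 to 0.0027 for Cacna1a, -0.027 to 0.15 for Cacna1c, -0.19 to 0.16 for Cacna1d, -0.28 to 0.041 for Cacnb3, -0.13 to 0.10 for Kcnh2, -0.048 to 0.21 for Kcnk16 and -0.078 to 0.52 for Rem2. Between the lines they were -0.0034 to 0.16 for Cacna1c, -0.17 to 0.055 for Gem and -0.22 to 0.38 for Rem2 in vehicle, and -0.034 to 0.14 for Kcnj11 and -0.16 to 0.0027 for Cacna1c under ivermectin. For the interaction they were -0.15 to 0.021 for Kcnj11, -0.17 to 0.031 for Cacna1a, -0.36 to 0.027 for Cacna1d, -0.28 to 0.11 for Cacnb2 and -0.21 to 0.11 for Cacnb3. Cacnb2 and Kcnk16 rest on 11 to 55 counts per library, which limits their precision.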
